A study of Mus musculus with 11 samples.

Results

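The stress keratins Krt6a, Krt6b, Krt16 and Krt17 were followed in keratoacanthomas, which are crater-shaped squamous tumours of the skin, and in normal skin of transgenic mice. They were taken as the genes with these 4 symbols among the 20352 genes measured, and were covered by 21 of the 211507 probesets used, 4 for Krt6a, 5 for Krt6b, 4 for Krt16 and 8 for Krt17. The arrays held 5 keratoacanthomas, all from mice carrying both a K14-Cre and a Zmiz1 transgene, and 6 normal skins. Normal skins 1 and 2 were K14-Cre;Zmiz1 double transgenic like the tumours, normal skins 3 and 4 carried K14-Cre only, and normal skins 5 and 6 carried Zmiz1 only. K14-Cre places the recombinase under the keratin 14 promoter, which is active in basal cells of stratified epithelia. Strain, age and the build of the Zmiz1 transgene were not given in the sources used here. Nor was it given whether pieces came from separate animals, so p-values measure the spread between these pieces.

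Keratin filaments are built from pairs of a type II and a type I chain. Krt6a and Krt6b are type II chains encoded by neighbouring, nearly identical genes, and Krt16 and Krt17 are type I chains that pair with them. In resting skin these keratins are made in hair follicles, nail bed and thick footpad skin, while the epidermis between follicles makes Krt5 and Krt14 in its basal layer and Krt1 and Krt10 above it. After wounding, in psoriasis and in squamous tumours, the interfollicular epidermis turns the stress keratins on, and in human skin inherited mutations of these genes cause pachyonychia congenita.

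Each gene level was the median log2 value over the gene's probesets. Array medians over all probesets lay between 6.22 and 6.27. Zmiz1 itself was higher by 0.65 (log2) in keratoacanthoma than in the normal skins of all genotypes together (limma, adjusted p = 0.0045). The keratinocyte markers, a list of 14 genes with Krt5, Krt14 and Trp63 among them, averaged 9.62 to 9.73 in the keratoacanthomas and 8.69 to 9.34 in the normal skins, so that epithelium was present in every piece. Skeletal muscle markers averaged 5.72 to 7.57 in keratoacanthomas and 10.71 to 11.85 in normal skins, and all 10 were lower in the tumours. Of the other markers, 7 of 8 for adipocytes, 4 of 7 for fibroblasts, 2 of 5 for macrophages and 1 of 6 for T cells were lower. For neutrophils 5 of 8 were higher. Of all genes, 10.8% were lower and 14.5% higher. Against the double transgenic skins alone these counts were 5 for adipocytes, 3 for fibroblasts, 0 for macrophages, 0 for T cells and 3 for neutrophils. In that comparison 6.93% of all genes were lower and 10.6% higher.

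All 4 stress keratins rose in keratoacanthoma, and for each of them every tumour lay above every normal skin. Of all genes, 25.3% passed the test in either direction and 14.5% as higher, and 9.66% lay without overlap above normal skin. Krt6b rose 20.3-fold, Krt16 12.8-fold, Krt6a 8.05-fold and Krt17 2.35-fold. In bulk tissue, more cells making a gene and more of its RNA per cell cannot be told apart.

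The type II chain Krt6a had levels (log2) of 11.001, 10.92, 11.08, 10.95 and 11.33 in keratoacanthomas 1 to 5. In the 6 normal skins its lowest level was 7.48, its median 7.77 and its highest 9.01. The lowest tumour was 1.91 above the highest normal skin. Krt6a averaged 11.06 ± 0.16 (SD, n = 5) in keratoacanthoma and 8.05 ± 0.66 (SD, n = 6) in normal skin. Its log2 difference was 3.01 (SE 0.26, 95% interval 2.44 to 3.58, limma, adjusted p = 7.4e-06 over all genes).

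Krt6b, its near-identical neighbour, had levels of 11.56, 11.32, 11.43, 11.15 and 11.48 in the 5 keratoacanthomas. Normal skins spanned 5.02 to 9.04 around a median of 6.98, the widest span of the 4 genes. The groups were again separate, with the lowest tumour 2.10 above the highest skin. Krt6b averaged 11.39 ± 0.16 (SD, n = 5) in keratoacanthoma and 7.04 ± 1.49 (SD, n = 6) in normal skin, and its log2 difference was 4.34 (SE 0.57, 95% interval 3.12 to 5.57, limma, adjusted p = 0.00014).

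The type I chain Krt16, a partner of Krt6 in activated epidermis, had levels of 11.52, 11.43, 11.44, 11.47 and 11.65 in keratoacanthomas 1 to 5. Normal skin gave 6.48 at the lowest, 7.62 at the median and 9.48 at the highest. No normal skin came within 1.95 of the lowest tumour, and the tumours differed from each other by 0.21 at most. Krt16 averaged 11.50 ± 0.088 (SD, n = 5) in keratoacanthoma and 7.82 ± 1.22 (SD, n = 6) in normal skin. That is a log2 difference of 3.68 (SE 0.46, 95% interval 2.68 to 4.68, limma, adjusted p = 0.00011).

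Krt17, a type I chain of the outer root sheath and of activated epidermis that in mouse keratinocytes is known to bind the adaptor 14-3-3 sigma, had the smallest rise of the 4. It had levels of 9.76, 9.66, 9.53, 9.96 and 9.60 in keratoacanthomas 1 to 5, against a lowest level of 7.87, a median of 8.58 and a highest level of 9.11 in normal skin. The gap between the groups was 0.43. Krt17 averaged 9.70 ± 0.17 (SD, n = 5) in keratoacanthoma and 8.47 ± 0.46 (SD, n = 6) in normal skin, and its log2 difference was 1.23 (SE 0.20, 95% interval 0.81 to 1.66, limma, adjusted p = 0.0006).

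For each of the 4 genes the exact two-sided permutation test over the 462 splits of the arrays gave p = 0.0043, the smallest it can give. When the genes were ordered by their signed log2 difference with the largest rise first, Krt6b stood at place 12 of 20352, Krt16 at 31, Krt6a at 50 and Krt17 at 427.

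**Figure D1:**
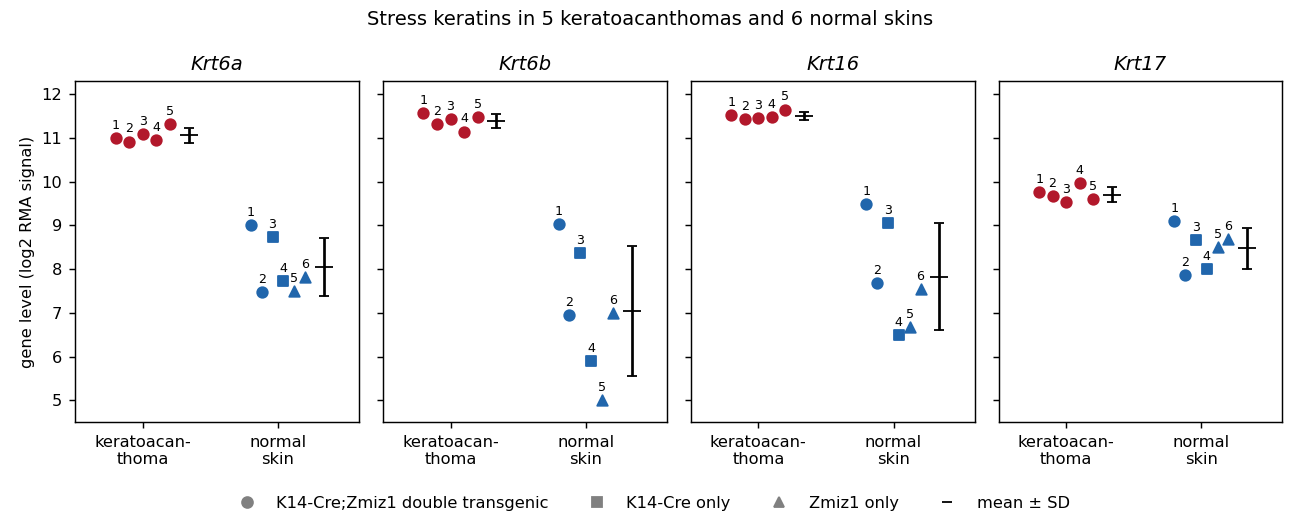
Gene level (log2 RMA signal, vertical axis) of Krt6a, Krt6b, Krt16 and Krt17 in 5 keratoacanthomas (left, red) and 6 normal skins (right, blue); numbers are the sample numbers, symbols the genotype and black bars the mean ± SD. In every panel the tumours lie close together above all normal skins, and the normal skins spread most for Krt6b, between 5.02 and 9.04.

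The tumours lay closer together than the normal skins did. Among the keratoacanthomas the highest level was 1.33-fold the lowest for Krt6a, 1.34-fold for Krt6b, 1.16-fold for Krt16 and 1.35-fold for Krt17. Among the normal skins the same ratio was 2.90-fold for Krt6a, 16.3-fold for Krt6b, 7.98-fold for Krt16 and 2.36-fold for Krt17. The SD of the normal skins was thus 4.03 times that of the tumours for Krt6a, 9.30 times for Krt6b, 13.9 times for Krt16 and 2.77 times for Krt17. The equality of the spreads was not tested. The tumour means of 11.39 for Krt6b and 11.50 for Krt16 lay above 11.33, the highest 99th percentile of any array. Krt6b in normal skin 5, at 5.02, lay near the 25th percentile of that array, 4.95. Whether the ends of the scale affect the spreads was not tested.

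Changes of unequal size within the type II pair and within the type I pair were tested as per-array differences, of which only the shift between groups can be read, since levels of different probes are on different scales. Krt6b minus Krt6a was 0.33 ± 0.17 (SD, n = 5) in keratoacanthoma and −1.0 ± 0.96 (SD, n = 6) in normal skin, a shift of 1.33. Krt16 minus Krt17 was 1.80 ± 0.20 (SD, n = 5) in keratoacanthoma and −0.65 ± 0.97 (SD, n = 6) in normal skin, a shift of 2.45. Neither difference overlapped between the groups, and the exact permutation p was 0.0043 for both, also after Benjamini-Hochberg adjustment over these 2 pairs. For Krt6b minus Krt6a the groups lay close, with 0.15 in the lowest tumour and 0.03 in the highest normal skin. For Krt16 minus Krt17 these values were 1.51 and 0.40. Against all normal skins, Krt6b thus rose more than Krt6a, and Krt16 more than Krt17, on this scale. Against the double transgenic skins alone the log2 difference was 3.40 for Krt6b and 2.81 for Krt6a, and their inequality was not tested there.

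Single probesets showed how far these sizes depend on where in the gene they were read. Of the 21 probesets, 19 were higher in keratoacanthoma (limma over all probesets), against 8.29% of all probesets, and 18 lay without overlap above normal skin, against 6.21% of all. Of the 21, 6 differed in their change from the rest of their gene, against 4.1% of all probesets tested for this. For each gene, the probeset brightest in normal skin gave the smallest change, and for 3 of the 4 genes the dimmest one gave the largest. The change contains the level in normal skin, so both measures share it.

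The Krt6a probeset 10432781 had 11.55, 11.51, 11.68, 11.64 and 11.43 in the tumours and 9.82 to 11.50 in normal skin, where normal skins 1 and 3 reached 11.50 and 11.42. It was the one Krt6a probeset whose groups overlapped, with a log2 difference of 0.99 (adjusted p = 0.044), 2.02 less than its gene's median (adjusted p = 0.00012). The Krt6a probeset 10432783 gave 4.26, with 8.58 to 9.63 in tumours and 3.40 to 7.52 in normal skin. All 5 Krt6b probesets were separate, between 2.12 at probeset 10432776, which changed 2.22 less than its gene (adjusted p = 0.029), and 5.85 at probeset 10432779. At 10432779 the levels were 9.27 to 9.99 in tumours and 2.14 to 6.05 in normal skin, the dimmest readings of any stress keratin probeset.

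All 4 Krt16 probesets were separate as well. Their changes ran between 2.63 at probeset 10391063, 1.06 less than the gene (adjusted p = 0.0037), and 5.30 at probeset 10391065, 1.62 more than the gene (adjusted p = 0.007). For Krt17, 6 of 8 probesets passed, between 0.74 and 1.65. The Krt17 probesets 10391067 and 10391068 did not pass, with log2 differences of 0.23 (adjusted p = 0.44) and 0.49 (adjusted p = 0.16), and changed 1.00 and 0.75 less than the gene (adjusted p = 0.0051 and 0.035). These were the brightest Krt17 probesets in normal skin, at means of 11.76 and 11.57 in keratoacanthoma and 11.52 and 11.09 in normal skin.

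The mean in keratoacanthoma lay above 11.33, the highest 99th percentile of any array, for 9 of the 21 probesets, and the mean in normal skin for 1. Whether bright probes flatten there was not tested. Krt6a and Krt6b are close in sequence, as are Krt14, Krt16 and Krt17, and probes of one may also pick up RNA of another, which leaves the single values uncertain.

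**Figure D2:**
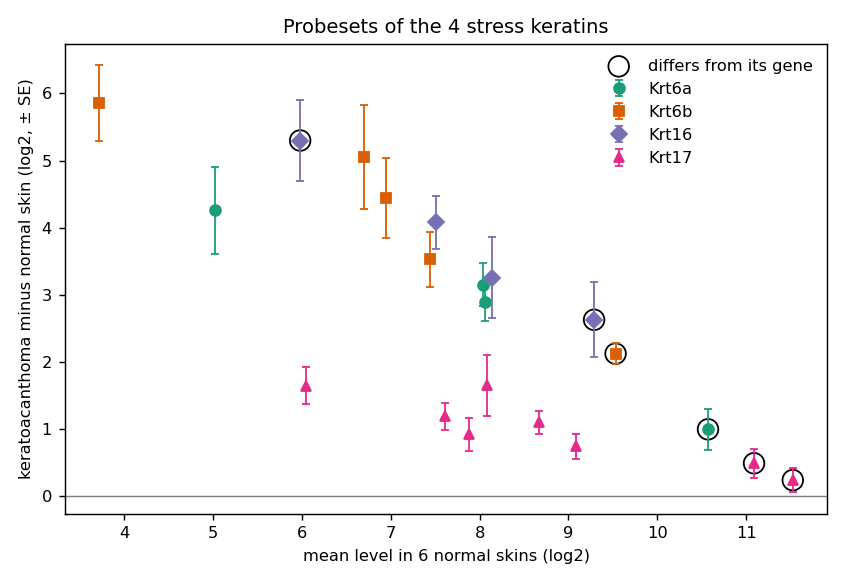
Log2 difference between keratoacanthoma and normal skin (vertical axis, ± SE) of each of the 21 stress keratin probesets against its mean log2 level in the 6 normal skins (horizontal axis); rings mark the 6 probesets whose change differed from their gene's. Changes run between 0.23 and 5.85, and for each gene the probeset brightest in normal skin has the smallest.

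The comparison was repeated within 1 genotype, the 5 keratoacanthomas against the double transgenic normal skins 1 and 2. All 4 stress keratins passed, against 10.6% of all genes called higher. The log2 difference was 2.81 (SE 0.36) for Krt6a, 3.40 (SE 0.69) for Krt6b, 2.92 (SE 0.60) for Krt16 and 1.22 (SE 0.29) for Krt17. Adjusted p-values (limma, 4 groups) were 0.00092 for Krt6a, 0.0087 for Krt6b, 0.0086 for Krt16 and 0.016 for Krt17. These calls rested in part on normal skin 2. Of all arrays, normal skin 2 had the lowest keratinocyte mean, 8.69, and the highest skeletal muscle mean, 11.85. The part of this in the calls was not tested, and this comparison was not read relative to keratinocyte markers. With normal skin 1 as the sole reference, whose spread is then assumed to be that of the other groups, Krt6a kept its call at 2.05. The differences of 2.35 for Krt6b (adjusted p = 0.14), 2.02 for Krt16 (adjusted p = 0.14) and 0.60 for Krt17 (adjusted p = 0.21) did not pass, in a fit that called 503 genes higher instead of 2164.

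Among the normal skins no difference by genotype passed the test for any stress keratin. Krt6b was 9.04 and 6.94 in double transgenic skins, 8.36 and 5.90 in K14-Cre only skins and 5.02 and 7.01 in Zmiz1 only skins. Krt16 was 9.48 and 7.68 in double transgenic skins, 9.06 and 6.48 in K14-Cre only skins and 6.68 and 7.55 in Zmiz1 only skins. Within the double transgenic and the K14-Cre only genotype, skin of the same genotype thus spread widely for both genes. Krt6a was 9.01 and 7.48 in double transgenic skins, 8.74 and 7.73 in K14-Cre only skins and 7.51 and 7.82 in Zmiz1 only skins. Krt17 was 9.11 and 7.87 in double transgenic skins, 8.66 and 8.01 in K14-Cre only skins and 8.50 and 8.70 in Zmiz1 only skins.

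Double minus single transgenic skin gave 0.29 (95% interval −0.53 to 1.11) for Krt6a, 1.42 (−0.16 to 3.00) for Krt6b, 1.14 (−0.22 to 2.49) for Krt16 and 0.02 (−0.63 to 0.68) for Krt17. The lowest adjusted p was 0.53, and the F test over the 3 genotypes gave adjusted p-values of 0.50 to 0.90. In all, 0.0147% of genes passed the first of these tests and 0.00983% the F test. Without normal skin 1, the double minus single comparison called 187 genes higher and 159 lower, instead of 3 in all, and none of the 4 stress keratins was among them. The intervals are wide, and differences of several fold in Krt6b and Krt16 lie inside them. The sign for Krt17, and without normal skin 1 that for Krt6a at −0.47, turned when single skins were left out.

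Normal skins 1 and 3, of different genotypes, were the highest 2 normal skins for Krt6a, Krt6b and Krt16. For Krt17, normal skin 6 at 8.70 was level with normal skin 3 at 8.66. Normal skins 1 and 3 averaged 8.87 for Krt6a, 8.70 for Krt6b, 9.27 for Krt16 and 8.88 for Krt17. The other 4 normal skins averaged 7.63 for Krt6a, 6.22 for Krt6b, 7.10 for Krt16 and 8.27 for Krt17. As these skins were picked by their values, no test is given.

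The same 2 skins were also high in hair keratins and in dividing cells. The keratins of the hair shaft, of which 14 of 16 were measured, averaged 8.54 and 8.25 in normal skins 1 and 3 and 5.71 to 5.95 in the other 4. Keratins of the inner root sheath and companion layer, 9 genes, averaged 9.58 and 9.31 there and 5.26 to 5.45 in the other 4. The proliferation list averaged 7.19 and 6.69 in them and 5.48 to 5.76 in the rest. Among the tumours, keratoacanthoma 4 stood out in the same way, with 7.44 for hair shaft and 8.61 for inner root sheath keratins, against at most 5.89 and 5.97 in the other 4 tumours. Its Krt17 level of 9.96 was the highest of the tumours, and its Krt6b level of 11.15 the lowest.

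Between the groups, 25.3% of all genes passed the test in either direction. Of the inner root sheath and companion layer keratins 0 of 9 passed, and of the hair shaft keratins 1 of 14. That one was Krt32, a cuticle keratin, lower by 0.66. Without normal skins 1 and 3, the log2 difference was 3.42 for Krt6a, 5.17 for Krt6b, 4.40 for Krt16 and 1.44 for Krt17. With the hair shaft mean as a covariate it was 3.21 for Krt6a, 4.74 for Krt6b, 4.04 for Krt16 and 1.35 for Krt17. All 4 stayed past the test. Leaving out the skins highest for Krt6a, Krt6b and Krt16 enlarges their differences by construction. The part of the hair cycle in the spread of the normal skins was not tested.

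**Figure D3:**
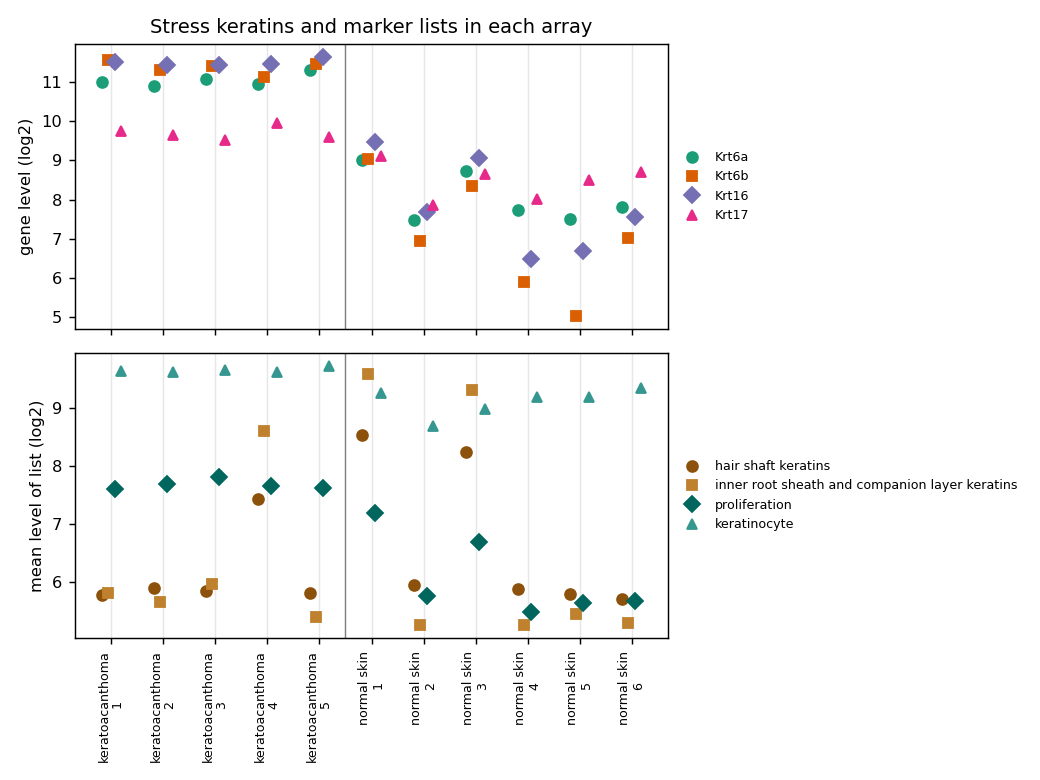
Log2 level of the 4 stress keratins (upper panel) and mean log2 level of 4 marker lists (lower panel) in each array, keratoacanthomas left of the grey line and normal skins right of it. Normal skins 1 and 3 are the highest normal skins for Krt6a, Krt6b and Krt16 and also for hair shaft keratins, inner root sheath and companion layer keratins and proliferation genes; keratoacanthoma 4 is high in both hair lists.

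Since muscle and fat markers were lower in the tumours, the stress keratins were also read relative to the mean of the keratinocyte list in the same array. On this scale the median over all genes moved from −0.044 to −0.59, and 3.71% of genes were called higher and 67.7% lower. Krt6a was higher by 2.47 (adjusted p = 3.7e-06), Krt6b by 3.80 (adjusted p = 5.6e-05) and Krt16 by 3.14 (adjusted p = 6.2e-05). Krt17 was higher by 0.69 (adjusted p = 0.0045), or 1.61-fold instead of 2.35-fold. All 4 therefore exceeded the shift of the keratinocyte markers as a group, though not that of each marker. Of the 14 listed markers themselves, 3 were higher and 3 lower on this scale. Their own mean was subtracted from them, so changes in both directions were partly fixed in advance. The higher ones were Dsg3 at 1.39, Itga6 at 0.70 and Krt14 at 0.65, beside 0.69 for Krt17.

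Set against the other keratins, 3 stress keratins had the 3 largest log2 differences of the 53 keratin genes measured, in the order Krt6b, Krt16 and Krt6a. Krt13, a keratin of mucosal epithelia such as the oesophagus, followed at 1.98, and Krt17 was the fifth. Of the 53, 10 were higher and 5 lower, beside 14.5% and 10.8% of all genes. Their median was −0.13, beside −0.044 over all genes. Relative to the keratinocyte list 7 were higher and 18 lower, beside 3.71% and 67.7% of all genes.

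Of the basal partners Krt5 and Krt14, Krt14 passed the test. It rose by 1.19 (SE 0.14, adjusted p = 8.8e-05), with 11.21 to 11.48 in keratoacanthomas and 9.63 to 10.60 in normal skins. Its probesets disagreed. Probesets 10391053 and 10391054, the brightest in normal skin, gave 0.14 and −0.08, and probeset 10391059 gave 0.17. These did not pass (limma over all probesets, adjusted p = 0.52, 0.73 and 0.63). The other Krt14 probesets passed, between 0.65 at probeset 10391056 and 1.45 at probeset 10391058. Krt5 had 11.09 to 11.39 in keratoacanthomas and 10.77 to 11.17 in normal skins, and its difference of 0.25 (adjusted p = 0.095) did not pass. Relative to the keratinocyte list, which holds both genes, Krt5 was at −0.29 and Krt14 at 0.65. The suprabasal Krt10, a chain of differentiating epidermis, was 11.66 to 11.85 in keratoacanthomas and 11.57 to 12.04 in normal skins, a difference of −0.03 (adjusted p = 0.88). Its partner Krt1 rose by 0.97.

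Of 24 other epithelial keratins, which include Krt5, Krt14, Krt1 and Krt10, 6 were higher and 4 lower, beside 14.5% and 10.8% of all genes. The median of these keratins was 0.24. Relative to the keratinocyte list 3 were higher and 10 lower, beside 3.71% and 67.7% of all genes. Besides Krt13, Krt14 and Krt1, Krt19, a keratin of simple epithelia and of follicle bulge cells, rose by 0.77. Krt77 fell by 2.60, Krt80 by 0.81, the follicle and basal keratin Krt15 by 0.54 and Krt222 by 0.42. Against the double transgenic skins alone, 3 of the 24 were higher and 1 lower, near the 10.6% and 6.93% of all genes.

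**Figure D4:**
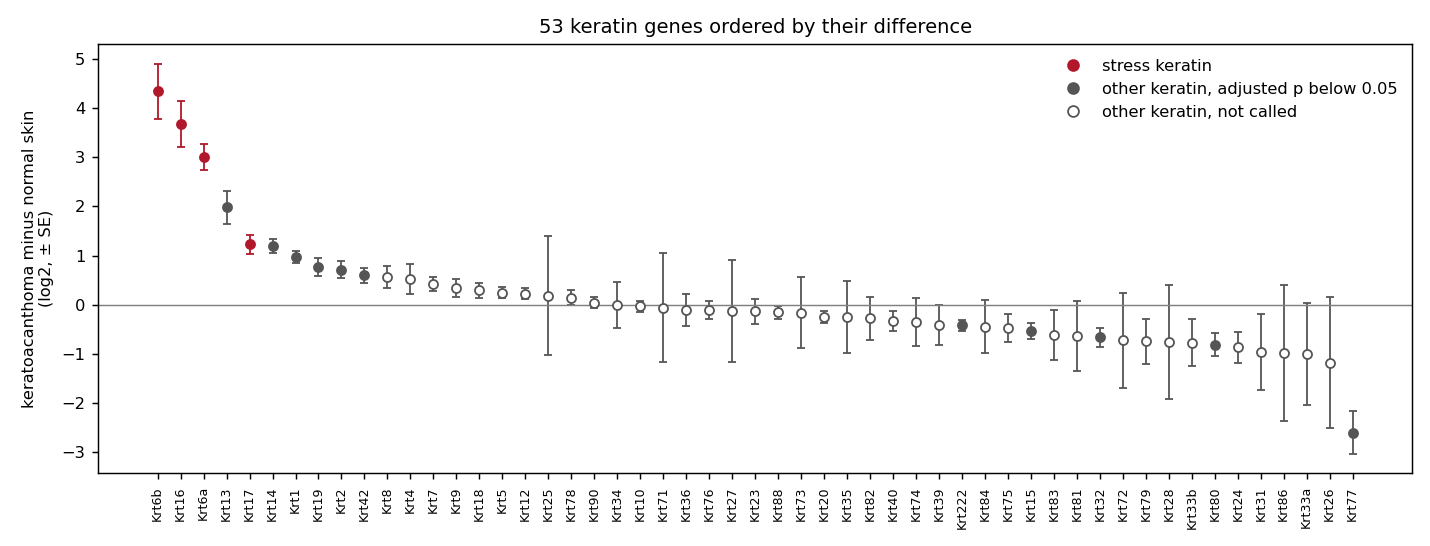
Log2 difference between keratoacanthoma and normal skin (vertical axis, ± SE) of the 53 keratin genes measured, in falling order. Krt6b, Krt16 and Krt6a lead with 4.34, 3.68 and 3.01, Krt17 is the fifth at 1.23, and Krt77 is the lowest at −2.60.

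The genes that lie beside the stress keratins in the 2 keratin clusters were read in the same comparison. In the type II cluster, the measured neighbours of Krt6a and Krt6b were Gm5414, which rose by 1.06 (adjusted p = 0.0028), Gm5478, which rose by 0.46 (adjusted p = 0.031), Krt5, and Krt71, an inner root sheath keratin at −0.06 (adjusted p = 0.97). In the type I cluster, Krt16 and Krt17 lay next to each other between Krt14 and Krt42, a mouse nail keratin that rose by 0.60 (adjusted p = 0.011). Beyond these, Krt9, the footpad keratin, was at 0.35 (adjusted p = 0.19), and Gast, which encodes the stomach hormone gastrin, at 0.05 (adjusted p = 0.76). The order of genes was taken from the annotation of GRCm38.

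Ligands known to switch on stress keratins in keratinocytes were examined next. They are agonists of the epidermal growth factor receptor and cytokines, among them interleukins, tumour necrosis factor and interferon gamma, of which 16 of 18 listed were measured. In keratoacanthoma 10 were higher and 1 lower, beside 14.5% and 10.8% of all genes. The median of the ligands was 1.10, and their list mean was 6.67 to 7.16 in tumours and 5.64 to 5.85 in normal skins. Epgn, an agonist of the receptor, rose by 3.76 (SE 0.15), with 10.31 ± 0.26 (SD, n = 5) in keratoacanthoma and 6.55 ± 0.24 (SD, n = 6) in normal skin. Il19 rose by 2.74, Il1b by 2.22 and Il24 by 2.21. Egf fell by 0.72. Relative to the keratinocyte list 8 ligands were higher and 5 lower, beside 3.71% and 67.7% of all genes. Against the double transgenic skins 10 ligands were higher and 1 lower, beside 10.6% and 6.93% of all genes. Neutrophil markers were higher beside the ligands, at 5.65 to 6.89 in tumours and 4.73 to 5.14 in normal skins. Their part in the interleukin values was not tested.

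Receptors of these ligands changed in both directions. Of 17, 5 were higher and 2 lower, beside 14.5% and 10.8% of all genes, with a median of 0.06. The oncostatin receptor Osmr rose by 0.77, Il22ra1 by 0.75, Erbb3 by 0.64 and the tumour necrosis factor receptor Tnfrsf1a by 0.51, though Tnfrsf1a was at −0.04 relative to the keratinocyte list. Il20ra, a chain of the receptor for Il19 and Il24, fell by 1.11 and Il6ra by 0.34. Egfr itself was at −0.03 and did not pass. The split depended on scaling, with 3 higher and 4 lower after quantile normalization of the gene table. It was 6 higher and 1 lower after centring arrays on their median. Relative to the keratinocyte list 0 were higher and 10 lower, on a scale where 67.7% of all genes were called lower.

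Transcription factors known to bind or activate stress keratin promoters were measured for 21 of 23 listed. Of these 7 were higher and none lower, beside 14.5% and 10.8% of all genes, and the list median was 0.06. Nfe2l2, known to drive Krt16 and Krt17 in human keratinocytes, rose by 1.04 (SE 0.13, adjusted p = 0.0001). Nfkb1 rose by 0.70, Stat3 by 0.68 and Myc by 0.62. Relative to the keratinocyte list Nfe2l2 was the single one still higher, at 0.50, and 10 of 21 were lower, beside 67.7% of all genes. Against the double transgenic skins 3 of the 21 were higher, near the 10.6% of all genes in that comparison. The AP-1 genes Jun, Junb, Jund, Fos, Fosb, Fosl1 and Fosl2 did not pass in either direction.

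Nuclear receptors known to repress these keratin genes when bound by hormone were lower or did not pass. Of 9, none was higher and 4 were lower, with a median of −0.36, and the same numbers held against the double transgenic skins. Background for lower calls was 10.8% of genes, and 6.93% against the double transgenic skins. The glucocorticoid receptor Nr3c1 fell by 0.91 (SE 0.18, adjusted p = 0.0026), the thyroid hormone receptors Thra by 0.77 and Thrb by 0.72, and the retinoic acid receptor Rarb by 0.40. After centring arrays on their median 3 were lower, and relative to the keratinocyte list all 9 were, on a scale where 67.7% of all genes were called lower.

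**Figure D5:**
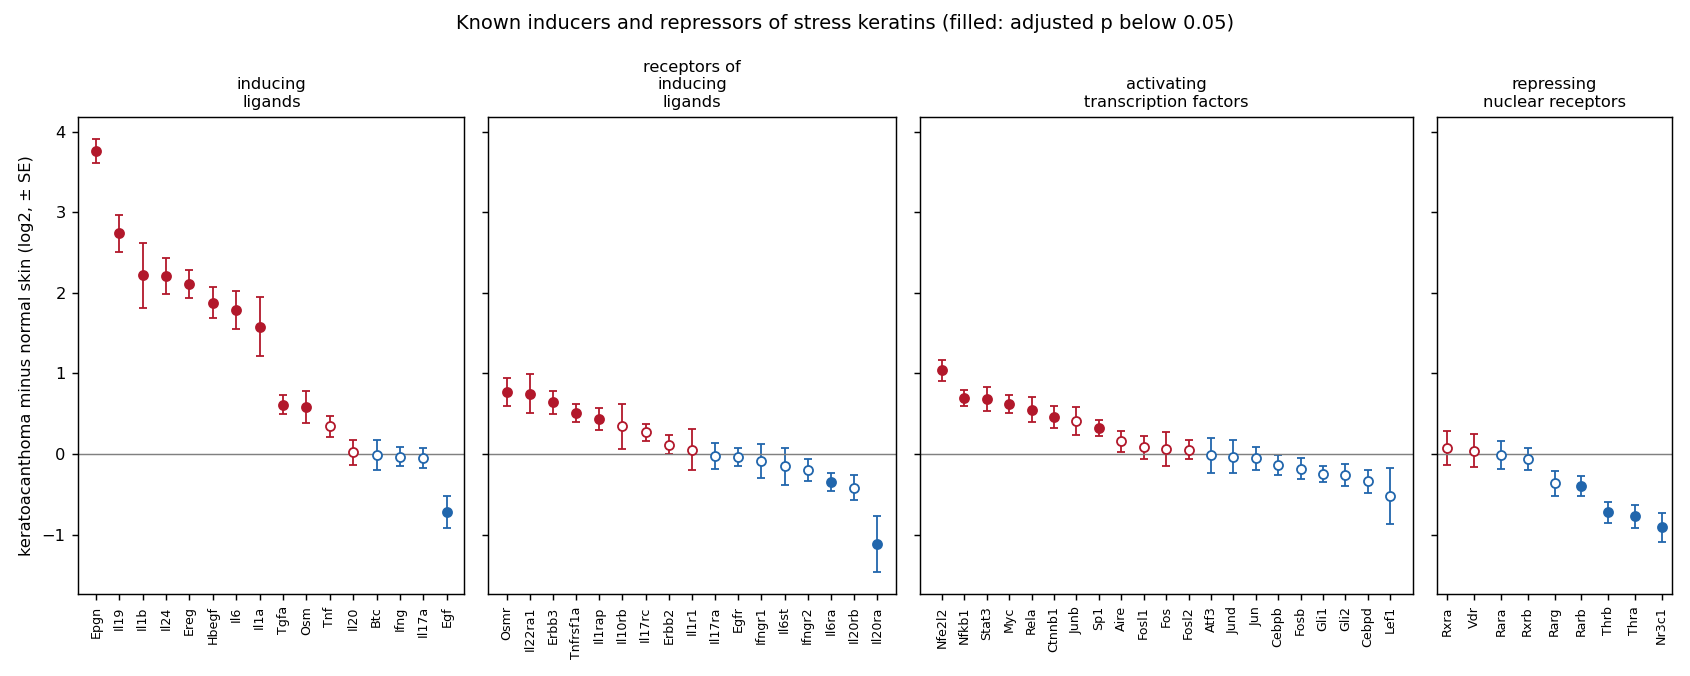
Log2 difference between keratoacanthoma and normal skin (vertical axis, ± SE) of genes known to induce, transmit, activate or repress stress keratin expression, in 4 panels and in falling order; filled points passed the test, red points lie above 0 and blue points below it. Ligands reach 3.76 at Epgn, while receptors and transcription factors stay at or below 1.04 and nuclear receptors fall as far as −0.91.

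Proteins that tie keratin filaments to desmosomes and hemidesmosomes split evenly, with 3 of 12 higher, 3 lower and a median of −0.02. Of all genes, 14.5% were higher and 10.8% lower. The desmosomal plaque genes Pkp1, Jup and Pkp3 rose by 0.57, 0.56 and 0.53, and were at 0.03, 0.01 and −0.01 relative to the keratinocyte list. Pkp1 and Jup are on that list themselves, so their values relative to it are partly fixed in advance. Dst, which encodes the hemidesmosome plakin BPAG1 and also a muscle form, fell by 1.37. Plec, another plakin, fell by 0.53, and Pkp2 by 0.51. Muscle markers were lower in the same pieces, and their part in the Dst and Plec values was not tested.

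Proliferating cells and the follicle's outer root sheath, where stress keratins are also made, were followed by lists. All 9 measured proliferation genes, with a median of 1.89, were higher, beside 14.5% of all genes. The list mean was 7.60 to 7.81 in keratoacanthomas and 5.48 to 7.19 in normal skins, and Hmmr, which binds hyaluronan and the spindle, rose by 2.10 and the kinetochore motor Cenpe by 1.97. Relative to the keratinocyte list 6 were higher, beside 3.71% of all genes. Against the double transgenic skins 5 were higher, beside 10.6% of all genes. Of the 9 outer root sheath and follicle stem cell markers, 5 were lower and none higher, beside 10.8% and 14.5% of all genes. The median of these markers was −0.50. Cd34, a bulge stem cell marker in mouse, fell by 1.31, Nfatc1 by 0.60 and Lgr6 by 0.57. After centring arrays on their median 3 of these 9 were lower. Against the double transgenic skins 2 were lower, beside 6.93% of all genes.

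The genes whose profiles came closest to each stress keratin were found by the root mean square difference of log2 profiles, each centred on its mean over the 11 arrays. The groups dominate such profiles, so this describes the arrays and nothing else. Closest to Krt6a were Casp14, a protease of cornification, at 0.146, Endou at 0.225 and the matrix protein gene Tnc at 0.236. Closest to Krt6b was Krt16 at 0.455, followed by Sprr2d, a precursor of the cornified envelope, at 0.527 and the kallikrein Klk6 at 0.539. Klk6 was also the closest to Krt16, at 0.236, ahead of Gsdmc at 0.422 and the cornified envelope gene Lce3c at 0.430.

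Krt17 had other neighbours, Fbl, the nucleolar methyltransferase fibrillarin, at 0.190, the chromatin factor Baz1a at 0.195 and Hax1 at 0.196. Closest to the mean of the 4 were Sprr1b at 0.182, Gsdmc at 0.243, Tnc at 0.274, Casp14 at 0.320 and the desmosomal cadherin Dsc2 at 0.369. Among the stress keratins themselves, Krt6b and Krt16 were the nearest pair at 0.455, Krt6a and Krt16 came next at 0.575, and Krt6b and Krt17 were the farthest apart at 1.78.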

How the data were processed

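Total RNA of 11 frozen tissue pieces was turned into SPIA-amplified, biotin-labelled cDNA and measured on arrays that cover whole transcripts, per the labels. The deposited values were log2 probeset signals, for which the submitters' processing notes name RMA, Partek and build mm9; versions were not given in the sources used here. Their scale was checked on the values (0.994 to 15.22, with no gaps). No batch was named, and the number of arrays limits the precision.

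Of 241576 probesets, 212097 named 1 gene in the platform annotation; 590 with values identical to another probeset of their gene were dropped, which left 211507 for 20352 genes (2742 symbols updated). The gene level was the median over probesets. Tests used R 4.3.3 with limma 3.58.1 (lmFit, eBayes, Benjamini-Hochberg over all genes or probesets, threshold 0.05), in a model of 2 groups and in one of tumour and 3 normal genotypes; Python 3.11.15 ran exact permutation tests. A changed probeset was one whose difference from its gene median changed, in genes with at least 4 probesets. The scripts were tested on data with known answers. No gene position is printed, because the annotation is of another build.

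Members, gene lists and tests were chosen with earlier results of these data known. Named genes were the 4 stress keratins, Krt5, Krt14 and Krt10, up to 4 changes past the threshold per list and direction, the 2 measured neighbours on either side and the nearest profiles; other genes meeting the rule appear in the counts. Krt1, Egfr and the AP-1 genes were named after their values were seen. Zmiz1 was named outside this rule, as the gene of the transgene. Alternatives covered the probeset summary, dim probesets and genes, normalization, variance model, array weights, covariates, other reference skins and leaving out arrays.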

Additional observations from a re-analysis of the deposited data

Results flagged for a closer look

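In 54 groups of values examined, the keratoacanthomas and the normal skins for each stress keratin, each probeset and both pair differences, 4 held a sample set apart from the rest of its group by Dixon's test; chance alone gives about 1 in 20. Normal skin 2 was the lowest of the normal skins at the 2 bright Krt17 probesets, with 10.85 at probeset 10391067, where the other 5 had 11.47 to 11.81, and 10.15 at probeset 10391068, where they had 11.06 to 11.39. Keratoacanthoma 4, the tumour with high hair keratins, was set apart at the Krt17 probeset 10391069 with 10.15, against 9.58 to 9.67 in the other 4 tumours. Keratoacanthoma 5 had 11.80 at the Krt6b probeset 10432776, against 11.60 to 11.64 in the other 4. No cause was tested.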

How the results depend on the processing

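All 4 stress keratins were higher and past the threshold under each of 26 alternatives to the comparison of keratoacanthoma with normal skin, with log2 differences of 2.47 to 3.45 for Krt6a, 3.40 to 5.23 for Krt6b, 2.92 to 4.41 for Krt16 and 0.69 to 1.44 for Krt17; the lowest Krt17 value was that relative to the keratinocyte list. Leaving out normal skins 1 and 3, with or without keratoacanthoma 4, and leaving out arrays from the same-genotype comparison were chosen after seeing the data. Leaving out single arrays gave 2.89 to 3.20 for Krt6a, 3.94 to 4.74 for Krt6b, 3.41 to 4.01 for Krt16 and 1.11 to 1.36 for Krt17 against all normal skins. Against double transgenic skins it gave 2.05 to 3.58 for Krt6a, 2.35 to 4.44 for Krt6b, 2.02 to 3.82 for Krt16 and 0.60 to 1.83 for Krt17, and the calls of Krt6b, Krt16 and Krt17 were lost without normal skin 2, a fit with fewer arrays. For double minus single transgenic skin, leaving out single arrays gave −0.47 to 1.06 for Krt6a, 0.37 to 2.47 for Krt6b, 0.24 to 2.04 for Krt16 and −0.59 to 0.64 for Krt17. Krt17 turned to −0.59 without normal skin 1, −0.14 without normal skin 4, −0.03 without normal skin 5 and −0.15 with the mean over probesets, and Krt6a to −0.47 without normal skin 1; none of these passed the test, and the cause was not tested.

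Genes called higher and lower numbered 2959 and 2200, 1942 and 1244 with the double transgenic skins alone as reference, and 756 and 13778 relative to the keratinocyte list; the same-genotype fit gave 2164 and 1411, but 503 and 323 without normal skin 2 and 2301 lower with the mean over probesets. Double minus single transgenic skin gave 2 higher and 1 lower, 187 and 159 without normal skin 1, 5 and 9 without normal skin 3 and at most 2 in all under each other alternative. The number in the sample titles did not pair the samples, as same-numbered deviations correlated between −0.18 and 0.10 and 1 of 5 tumours lay closest to its own number; with it as a replicate block the differences were 2.96 for Krt6a, 4.34 for Krt6b, 3.63 for Krt16 and 1.28 for Krt17, and 2596 and 1716 genes were called.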
